A study of Rattus norvegicus with 10 samples.

Results

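The genes described here carry adrenergic and muscarinic receptor signals in heart muscle: the receptors Adrb1, Adra1a, Adra1b and Chrm2, the G protein alpha subunits Gnas and Gnaq, the regulator Rgs2, the phosphodiesterase Pde4d and the protein kinase A subunit Prkar1a. They were listed by name for their place in the pathway, with earlier results of these data known. Every probe set whose annotation names a listed gene alone was taken. This gave 9 genes and 16 probe sets, of 14217 genes and 20826 probe sets that name a single gene. RNA of the left ventricle of male Sprague-Dawley rats weighing 250 to 300 g was hybridised to Affymetrix rat expression arrays 3 days after gene transfer. The 5 arrays of 1 group came from animals given the gene for GATA-4, a transcription factor that binds GATA sequences and is made in heart muscle cells, and the 5 of the other from animals given LacZ, the control, which encodes the bacterial enzyme beta-galactosidase. All 10 arrays thus come from hearts that received a gene. Groups follow the source label, since the titles name GATA-4 on every array. The sources used here do not give the age of the rats, the vehicle, the promoter driving each gene or the share of cells reached. The labels do not say that each array is a separate animal, so p-values measure the spread between these samples, which may be technical.

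Noradrenaline released from sympathetic nerves and adrenaline from the adrenal gland act on beta-adrenergic receptors, which work through the stimulatory G protein Gs, cyclic AMP and protein kinase A to raise the rate and force of the beat. The same hormones act on alpha1-adrenergic receptors, which work through Gq, phospholipase C and protein kinase C and are known for their part in the growth of heart muscle cells. Acetylcholine from the vagus nerve acts on the Chrm2 receptor, which works through the inhibitory G proteins and slows the heart. RGS proteins end the signal by speeding up GTP hydrolysis, and phosphodiesterases end it by breaking down cyclic AMP.

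Because GATA-4 is a DNA-binding factor, the stretches just upstream of the members' transcription starts were read from the RefSeq promoter table of build GRCr8, which held 14 starts of 8 members and none for Adra1a. The 250 bases before the start are shown for Adra1b, the member that passed the test, and for Rgs2, whose probe sets came near it. Both lie on the minus strand, Adra1b at chr10:28814348-28814597 and Rgs2 at chr13:58352667-58352916, and both are printed 5′ to 3′ towards the gene. The Adra1b start is the one the table lists and lies inside the RefSeq span of the gene. The capitals in Rgs2 mark the reverse complement of TGACG, the core letters of the cyclic AMP response element.
Adra1b: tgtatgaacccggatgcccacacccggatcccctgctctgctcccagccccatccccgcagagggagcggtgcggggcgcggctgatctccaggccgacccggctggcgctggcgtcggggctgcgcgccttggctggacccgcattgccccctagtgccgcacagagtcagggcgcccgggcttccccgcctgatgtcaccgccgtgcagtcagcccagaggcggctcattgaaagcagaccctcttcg
Rgs2: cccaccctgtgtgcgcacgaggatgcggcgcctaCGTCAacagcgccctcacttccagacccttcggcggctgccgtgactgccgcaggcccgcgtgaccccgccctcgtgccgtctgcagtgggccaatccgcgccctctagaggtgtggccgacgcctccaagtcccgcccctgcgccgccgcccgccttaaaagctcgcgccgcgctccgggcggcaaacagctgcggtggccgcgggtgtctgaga
A GATA motif was searched as AGATAA or AGATAG or TGATAA or TGATAG on both strands, and none of the 14 member stretches held it. The same search found it in 27.0% of the 33469 stretches of 250 bases in the table. The core TGACG, also searched on both strands, was found in 5 of the 14 (35.7%), against 18.2% of all. Those 5 belong to Adrb1, Gnaq and Rgs2, with 1 start each, and to Pde4d, with 2 starts. The Rgs2 match spans bases 216 to 212 before the start. A match describes letters only, and the lack of one says nothing of the factor, since only this window was read.

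The signal of the brighter Gata4 probe set followed the labels. The sources used here do not say whether it reads the transferred gene, the rats' own or both. Gata4 had a normalized log2 signal of 11.44 ± 0.14 (SD, n = 5) with GATA-4 and 10.65 ± 0.13 with LacZ, a difference of 0.79 (SE 0.09, limma adjusted p = 0.00131), and the groups did not overlap. A second Gata4 probe set lay under the filter, with a difference of 0.81 and groups that overlapped (exact permutation p = 0.19). The deposited signals had 2%-trimmed means of 249 to 314 on the LacZ arrays and of 249 to 329 on GATA-4 arrays 2 to 5, while GATA-4 array 1 stood apart at 142. Quantile normalization gives all arrays the same overall distribution of signals, but single probe sets on GATA-4 array 1 can still stand apart. Members and pathway genes whose call rests on that array are given with and without it. No pair of arrays held identical values, and their pairwise correlations over probe sets were 0.925 to 0.956. The log2 ratio of 3' to 5' control signals was 1.07 ± 0.17 with GATA-4 and 1.08 ± 0.25 with LacZ (exact permutation p = 0.984). Of 6 macrophage markers, 4 rose (Cd68, Csf1r, Tyrobp and Cd14), and the summed signal of the list was 3853 to 5005 with LacZ and 6792 to 8293 with GATA-4, with mean log2 signals of 8.94 to 9.35 and 9.45 to 10.01. Of 6 cardiac muscle markers measured, Ttn fell by 0.27 (limma adjusted p = 0.0096), and the list summed to 62565 to 63970 with LacZ and 59780 to 62601 with GATA-4. Those sums overlapped, while the mean log2 signals of the list, 13.32 to 13.36 with LacZ and 13.25 to 13.31 with GATA-4, did not. No marker of these lists was at the floor of 0. None of the tested markers of atrial muscle, smooth muscle, endothelium, fibroblasts, T and NK cells or Schwann cells passed, and of 3 neutrophil markers tested Csf3r rose. The part of these differences in the results below was not tested. In a piece of tissue, fewer cells of a type and less RNA per cell cannot be told apart.

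Among the members, Adra1b, the alpha1B-adrenergic receptor, was lower with GATA-4, and it was the only probe set of the 10 tested that passed the threshold, a limma p of 0.05 after Benjamini-Hochberg adjustment over all 18625 probe sets tested. Over all of those, 988 (5.3%) passed, 422 of them (2.27%) lower and 566 (3.04%) higher. With arrays centred on their medians in place of quantile normalization the split was 401 lower and 322 higher. Both probe sets of Rgs2 were higher with GATA-4 and 1 of the 3 for Pde4d was lower, each just short of the threshold. An unadjusted limma p under 0.05 was found for 4 of the 10, against 22.0% of all. The groups did not overlap for 4 of the 10 member probe sets, against 8.3% of all. These 10 belong to 6 genes, and the members were chosen with earlier results of these data known, so the shares only describe them. The 10 comprised 4 higher and 6 lower, with a median difference of -0.06 against -0.03 over all. The other 6 probe sets, among them the only ones for Adrb1, Adra1a and Chrm2, lay below the filter, a mean log2 signal of 5.17 (a signal of 35.9), and were not tested across the array.

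**Figure D1:**
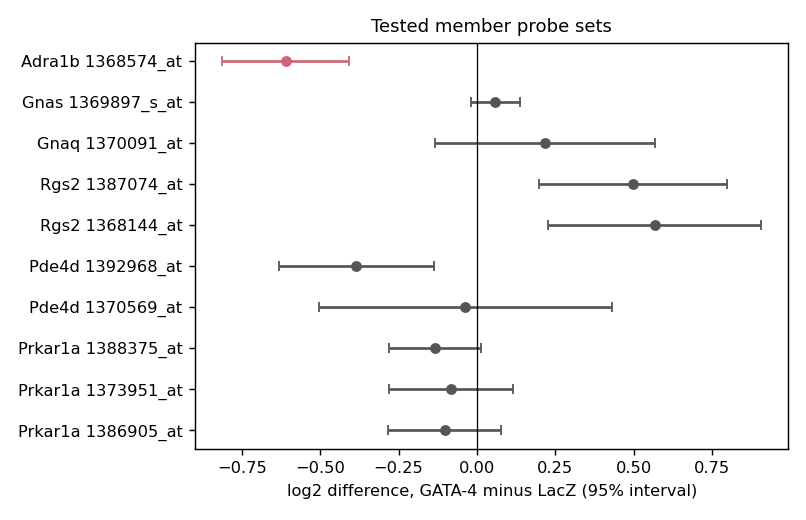
Log2 difference, GATA-4 minus LacZ, on the horizontal axis for each of the 10 tested member probe sets, with limma's 95% interval as the bar; the probe set past the adjusted threshold is in red. The interval of Adra1b runs from -0.81 to -0.41, those of both Rgs2 probe sets lie above 0 and that of Pde4d 1392968_at lies below it, while the others include 0.

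The alpha1B-adrenergic receptor couples to Gq and is one of the alpha1 subtypes of rodent heart muscle. The Adra1b probe set, 1368574_at, had normalized log2 signals of 10.41, 10.27, 10.38, 10.60 and 10.61 on LacZ arrays 1 to 5. On GATA-4 arrays 1 to 5 they were 9.93, 9.84, 9.75, 9.70 and 9.99. Every GATA-4 array lay below every LacZ array. The means were 10.45 ± 0.15 (SD, n = 5) with LacZ and 9.84 ± 0.12 with GATA-4. Adra1b therefore fell by 0.61 on the log2 scale (SE 0.09, 95% interval -0.81 to -0.41), a signal 1.53-fold lower with GATA-4. The limma adjusted p was 0.0068, and the exact two-sided permutation p was 0.00794, the smallest that 5 against 5 arrays allow.

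The fall of Adra1b was larger than the median of all probe sets called lower, -0.44, and 71 of the 422 fell by more than Adra1b. The call held with each of the 10 arrays left out in turn, with differences from -0.66 to -0.57 and adjusted p-values from 0.0015 to 0.025. Without GATA-4 array 1 the difference was -0.63 (adjusted p = 0.0015). As deposited, without normalization between arrays, the signals were 1321 to 1577 with LacZ. With GATA-4 they were 519 on array 1 and 799 to 1175 on arrays 2 to 5, so the groups did not overlap there either. On that scale the difference was -0.69 but the adjusted p was 0.993.

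**Figure D2:**
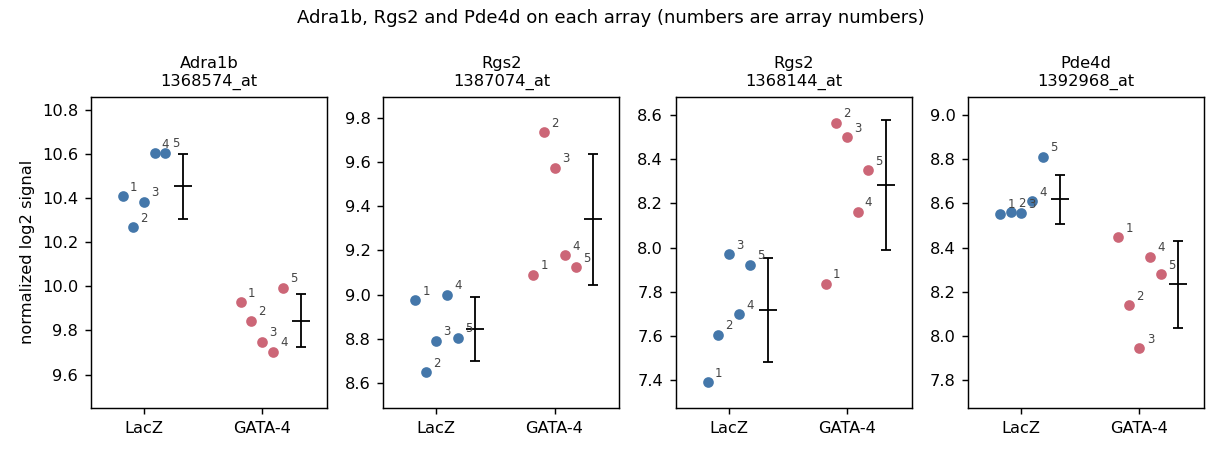
Normalized log2 signal on the vertical axis for 4 member probe sets, with LacZ in blue and GATA-4 in red; each point is 1 array with its number, the bar is the mean and the SD, and the 4 vertical axes span the same range at different levels. The GATA-4 arrays lie below all LacZ arrays for Adra1b and Pde4d 1392968_at and above them for Rgs2 1387074_at, while for Rgs2 1368144_at GATA-4 array 1 lies at 7.84, inside the LacZ range.

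The other receptors gave low signals. Adrb1, the beta1-adrenergic receptor and the main beta receptor of the ventricle, had log2 signals of 3.41, 4.89, 4.70, 4.23 and 4.99 with LacZ and of 4.50, 5.03, 5.19, 4.87 and 4.84 with GATA-4. The groups overlapped, although all 5 GATA-4 arrays lay above the LacZ mean of 4.44 ± 0.65 (SD, n = 5). The difference was 0.44 (exact permutation p = 0.198). Fitted without the filter, its 95% interval ran from -0.28 to 1.16.

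For Adra1a, the alpha1A-adrenergic receptor, which also couples to Gq, the log2 signals were 3.14, 2.13, 3.25, 2.86 and 4.20 with LacZ. With GATA-4 they were 4.73, 3.48, 2.94, 1.97 and 4.69. The groups overlapped widely, and the GATA-4 arrays held both the lowest and the highest value. The difference was 0.45 (exact permutation p = 0.46, interval without the filter -0.81 to 1.70). That interval includes the difference measured for Adra1b as well as 0.

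Chrm2, the M2 muscarinic receptor, lay just under the filter. Its log2 signals were 4.82, 5.53, 5.80, 4.82 and 4.42 with LacZ and 4.76, 5.34, 4.90, 5.34 and 5.75 with GATA-4. The ranges of the groups covered each other almost fully. The difference was 0.14 (exact permutation p = 0.683, interval without the filter -0.54 to 0.82).

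**Figure D3:**
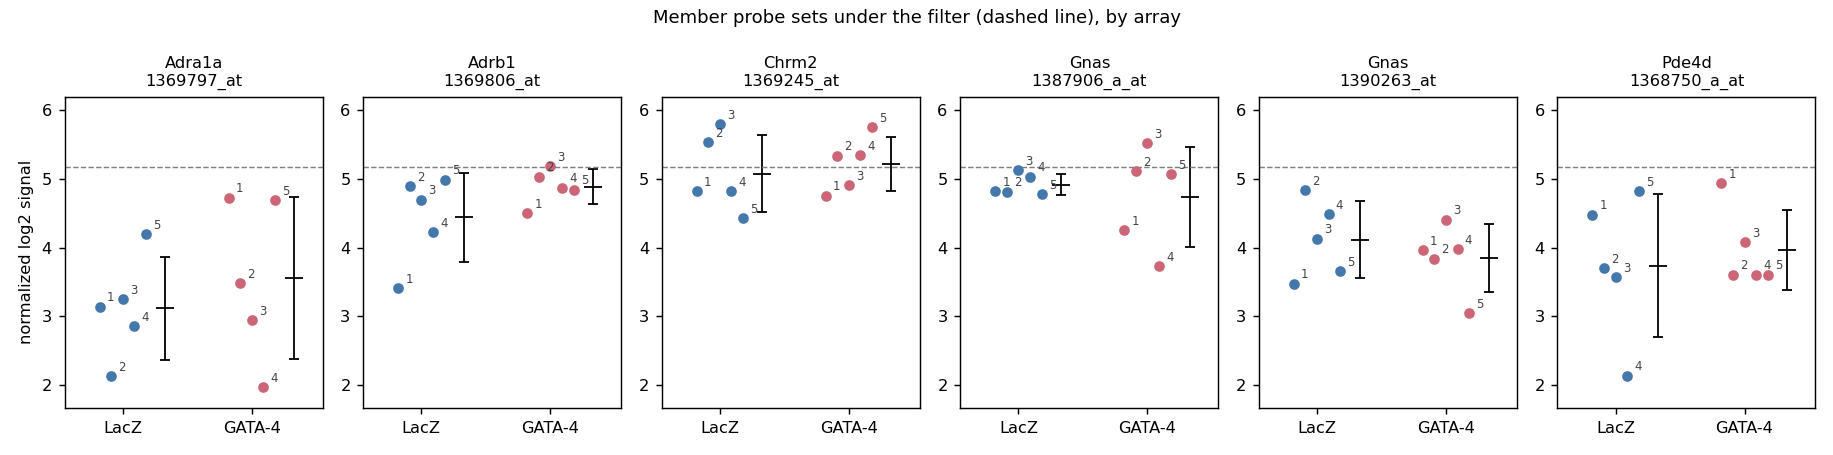
Normalized log2 signal on the vertical axis for the 6 member probe sets whose mean lay under the filter of 5.17 (dashed line), with LacZ in blue and GATA-4 in red; each point is 1 array with its number, and the bar is the mean and the SD. The groups overlap in all 6 panels, and the spread within a group reaches an SD of 1.18 for Adra1a.

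Gnas encodes the alpha subunit of Gs, which activates adenylyl cyclase behind the beta receptors. Its bright probe set, 1369897_s_at, had log2 signals of 13.00, 13.05, 13.08, 13.09 and 13.08 with LacZ and of 13.15, 13.10, 13.11, 13.13 and 13.11 with GATA-4. Every GATA-4 array lay above every LacZ array, but by little: the difference was 0.06 (SE 0.04, 95% interval -0.02 to 0.14, limma adjusted p = 0.366). The sign depended on the scaling, with a difference of -0.014 as deposited and -0.017 with arrays centred on their medians. The other Gnas probe sets were under the filter. The means for 1387906_a_at were 4.91 ± 0.15 with LacZ and 4.74 ± 0.73 with GATA-4, and those for 1390263_at were 4.11 ± 0.56 and 3.84 ± 0.50 (SD, n = 5 each). Their groups overlapped, with exact permutation p-values of 0.611 and 0.452.

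Gnaq encodes the alpha subunit of Gq, through which the alpha1 receptors act. The log2 signals of 1370091_at were 5.72, 5.58, 5.59, 5.24 and 5.58 with LacZ and 5.82, 5.81, 5.50, 5.79 and 5.87 with GATA-4. All GATA-4 arrays but array 3 lay above every LacZ array. The difference was 0.22 (SE 0.16, 95% interval -0.13 to 0.57), and limma's adjusted p was 0.465. The signal was close to the filter, and the exact permutation p was 0.0635.

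Rgs2 speeds up GTP hydrolysis on Gq with preference over the other alpha subunits, and so limits signals of the alpha1 receptors. Probe set 1387074_at had log2 signals of 8.97, 8.65, 8.79, 9.00 and 8.81 with LacZ and of 9.09, 9.74, 9.57, 9.18 and 9.12 with GATA-4. All GATA-4 arrays lay above all LacZ arrays, with arrays 2 and 3 the highest. The means were 8.84 ± 0.14 and 9.34 ± 0.29 (SD, n = 5 each). The difference was 0.50 (SE 0.14, 95% interval 0.20 to 0.80), a ratio of 1.41. Its limma adjusted p was 0.0565, above the threshold, and the exact permutation p was 0.00794.

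The second Rgs2 probe set, 1368144_at, had log2 signals of 7.39, 7.60, 7.97, 7.70 and 7.92 with LacZ and of 7.84, 8.57, 8.50, 8.16 and 8.35 with GATA-4. GATA-4 array 1, the dim one, lay inside the LacZ range, and the other 4 lay above it. The difference was 0.57 (SE 0.16, 95% interval 0.23 to 0.91), a ratio of 1.48 (limma adjusted p = 0.0561, exact permutation p = 0.0238). The differences of both Rgs2 probe sets lay 0.07 apart (exact permutation p = 0.683 on the arrays' differences between the probe sets, Benjamini-Hochberg adjusted over 5 such pairs 0.853). Without GATA-4 array 1 both passed, 1387074_at at 0.56 (limma adjusted p = 0.0138) and 1368144_at at 0.68 (adjusted p = 0.0062).

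Pde4d breaks down cyclic AMP close to the beta receptors and the calcium release channel, and is made in many isoforms. Probe set 1392968_at had log2 signals of 8.55, 8.56, 8.56, 8.61 and 8.81 with LacZ and of 8.45, 8.14, 7.94, 8.36 and 8.28 with GATA-4. Every GATA-4 array lay below every LacZ array, and LacZ array 5 was the highest. The means were 8.62 ± 0.11 and 8.23 ± 0.20 (SD, n = 5 each). The difference was -0.39 (SE 0.11, 95% interval -0.63 to -0.14), a signal ratio of 1.31 for LacZ over GATA-4. The limma adjusted p was 0.0701, above the threshold, and the exact permutation p was 0.00794. Without GATA-4 array 1 the probe set passed, at -0.44 (adjusted p = 0.0148).

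The other Pde4d probe sets did not show this. For 1370569_at the log2 signals were 5.96, 5.68, 5.95, 5.35 and 5.49 with LacZ and 5.57, 5.18, 5.87, 6.18 and 5.45 with GATA-4. The groups overlapped, with a difference of -0.04 (SE 0.22, 95% interval -0.50 to 0.43, limma adjusted p = 0.94). Its difference lay 0.35 from that of 1392968_at, a gap that did not pass a test of its own (exact permutation p = 0.159, adjusted over the 5 pairs 0.794). The third, 1368750_a_at, was under the filter, at 3.74 ± 1.04 with LacZ and 3.97 ± 0.58 with GATA-4 (SD, n = 5 each, exact permutation p = 0.698). The probe sets may read different isoforms, which the annotation used here does not tell apart.

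Prkar1a encodes a regulatory subunit of protein kinase A, which holds the catalytic subunits inactive until cyclic AMP binds. The brightest of its 3 probe sets, 1388375_at, had log2 signals of 12.35, 12.52, 12.65, 12.74 and 12.66 with LacZ and of 12.46, 12.37, 12.49, 12.49 and 12.45 with GATA-4. All 5 GATA-4 arrays lay below the LacZ mean, but LacZ array 1 was the lowest of the 10. The difference was -0.13 (SE 0.07, 95% interval -0.28 to 0.01, limma adjusted p = 0.267). The other probe sets had differences of -0.08 (SE 0.09, adjusted p = 0.639) and -0.10 (SE 0.08, adjusted p = 0.5). None of the 3 passed, and each interval allows a GATA-4 signal lower by up to 0.28 on the log2 scale.

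The number of members that passed differed between settings. Without GATA-4 array 1, 4 member probe sets passed, namely Adra1b, both of Rgs2 and Pde4d 1392968_at, while the count over all probe sets went from 988 to 2849. The same 4 passed with array weights and with the filter at the 60th percentile in place of the 40th. Over all probe sets, calls were also more frequent there. They numbered 2890 of 18625 with array weights and 1092 of 12417 with that filter. Rgs2 kept a positive difference and Pde4d 1392968_at a negative one under all 20 alternatives tried. As deposited, none of the members passed, and 9 probe sets did on the whole array.

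**Figure D4:**
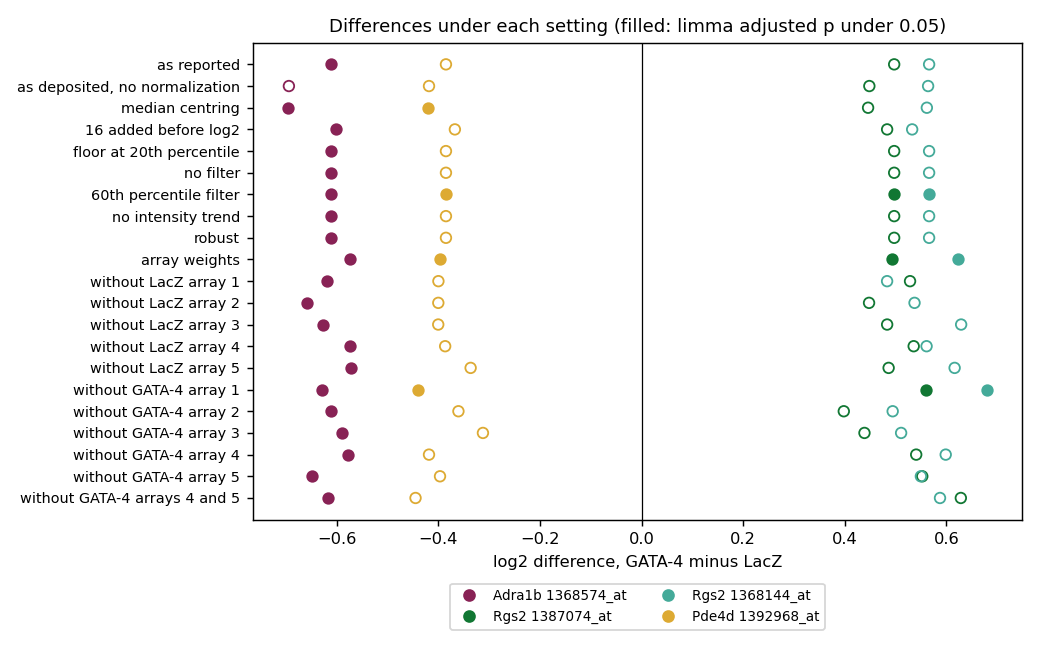
Log2 difference, GATA-4 minus LacZ, on the horizontal axis for 4 member probe sets under the setting reported and the 20 alternatives on the vertical axis; filled points have a limma adjusted p under 0.05 and open points do not. Adra1b is filled in all settings but the values as deposited, both Rgs2 probe sets are filled in 3 alternatives and Pde4d 1392968_at in 4, and no point crosses 0.

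The rest of the pathway was followed through 111 further genes listed by role, of which 107 were on the array and 87 were tested, each through its brightest probe set. Of the 87, 3 rose and 3 fell, which is 6.9% against 6.37% of all 10688 genes tested, so the share was near that of the array as a whole, where 3.71% rose and 2.66% fell. The groups did not overlap for 8 of the 87, against 9.66% of all genes. The median difference was 0.02 over the list and -0.02 over all genes. Arrb2 and the other 5 called genes did not pass on the values as deposited. Without the intensity trend Gnb4, Rgs4 and Akap1 did not pass, and without a filter Gnb4 and Rgs19 did not. Gnb4 did not pass with arrays centred on their medians. Without GATA-4 array 1 these 6 passed together with 10 further genes of the list, which are given below by role. That made 16 of the 87 list genes, while 2849 of all 18625 probe sets passed in the same fit. Calls thus became more frequent over the whole array too. In that fit 8 of the 16 were higher and 8 lower. The higher ones include Rgs1 and Pkib, whose LacZ means of 4.94 and 4.95 lay under the filter of 5.17. Both entered the test only through their higher GATA-4 arrays, so the split depends in part on the filter. Without GATA-4 arrays 4 and 5, Arrb2 and Akap1 were the 2 genes of the list that passed.

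Among the receptors only 1 other gene was bright enough to test: Adra1d, the alpha1D-adrenergic receptor, had a difference of -0.32 (SE 0.22, limma adjusted p = 0.414). The remaining 8 on the array, adrenergic and muscarinic, lay under the filter. Of 15 other G protein subunits tested, Gnb4, a beta subunit, rose from 7.84 ± 0.10 to 8.23 ± 0.12 (SD, n = 5 each; difference 0.39, SE 0.10, adjusted p = 0.0452). Gnb5, the beta subunit that pairs with the R7 family of RGS proteins, fell from 8.06 ± 0.15 to 7.56 ± 0.16 (difference -0.50, SE 0.12, adjusted p = 0.027). In both genes the groups did not overlap. With single arrays left out, Gnb4 kept its call in 1 of 10 fits, that without GATA-4 array 1. The Gnb5 call was kept in 4 of the 10, and was lost without LacZ array 1, 3, 4 or 5 or without GATA-4 array 3 or 4. Gng2, a gamma subunit, passed without GATA-4 array 1, at 0.64 (adjusted p = 0.0158), against 0.46 (adjusted p = 0.214) over all arrays.

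Of 5 genes of receptor desensitization tested, Arrb2 rose, and the other 4 did not pass on all 10 arrays. Arrb2 encodes beta-arrestin 2, which uncouples phosphorylated receptors from their G proteins. It went from 7.73 ± 0.16 with LacZ to 8.40 ± 0.10 with GATA-4 (SD, n = 5 each), a difference of 0.67 (SE 0.11, limma adjusted p = 0.0082). The LacZ arrays lay between 7.54 and 7.95 and the GATA-4 arrays between 8.29 and 8.52. The call was kept with each of the 10 arrays left out. Macrophage markers were higher on the same GATA-4 arrays, as given above, and their part in the Arrb2 difference was not tested. Grk6, a kinase that phosphorylates activated receptors, was at 8.57 on GATA-4 array 1, at 9.73 to 10.07 on GATA-4 arrays 2 to 5 and at 9.51 to 9.67 with LacZ. Its difference was 0.09 (limma adjusted p = 0.853) over all arrays, and it passed without GATA-4 array 1, at 0.36 (adjusted p = 0.0169).

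Of 11 other RGS proteins tested, Rgs19 rose and Rgs4 fell, and the median difference was 0.20. Rgs19, which acts on the inhibitory alpha subunits, went from 6.36 ± 0.34 to 7.11 ± 0.18 (difference 0.75, SE 0.17, limma adjusted p = 0.0264). Rgs4, which acts on inhibitory and Gq alpha subunits, went from 9.92 ± 0.17 to 9.28 ± 0.32 (difference -0.64, SE 0.14, adjusted p = 0.0267; SD, n = 5 each). The Rgs4 groups overlapped at GATA-4 array 2, with 9.80, and its second probe set had a difference of -0.26 (adjusted p = 0.546). Rgs19 lost its call without LacZ array 1, 3 or 5 or without GATA-4 array 3. With single arrays left out, Rgs4 kept its call in 2 of 10 fits, those without GATA-4 array 1 or 2. Rgs1 and Rgs6 did not pass on all arrays, with differences of 0.95 (adjusted p = 0.17) and -0.49 (adjusted p = 0.0702), but both passed without GATA-4 array 1. Rgs1 was then at 1.30 (adjusted p = 0.0144). Rgs6, of the R7 family that Gnb5 pairs with, was at -0.64 (adjusted p = 0.0014), with GATA-4 array 1 at 8.48, the other GATA-4 arrays at 7.62 to 7.85 and LacZ at 8.33 to 8.50. Over all arrays Rgs1 had a mean of 4.94 with LacZ, under the filter of 5.17, and of 5.89 with GATA-4. Rgs1 thus entered the test only through the GATA-4 arrays, where it was higher.

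On the cyclic AMP side no gene passed on all 10 arrays among 5 adenylyl cyclases, 8 other phosphodiesterases, 8 genes of protein kinase A and its inhibitors and 2 Epac proteins. The smallest p-values of these roles belonged to Adcy4 (difference 0.17, SE 0.14, limma adjusted p = 0.52), to Pde10a (0.29, SE 0.18, adjusted p = 0.371), to Pkia and to Rapgef4. Pkia, an inhibitor peptide of protein kinase A, had a difference of -0.18 (SE 0.05, adjusted p = 0.0586), groups that did not overlap and the same sign in its other 2 probe sets. Rapgef4, which encodes the cyclic AMP sensor Epac2, had a difference of -0.46 (SE 0.19, adjusted p = 0.181). The second probe set of Pde10a had the opposite sign, at -0.09.

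Of these 8 genes of protein kinase A and its inhibitors, 3 passed without GATA-4 array 1. Pkia was at -0.18 (limma adjusted p = 0.0199), and it also passed with array weights and with the 60th percentile filter. Prkaca, a catalytic subunit of protein kinase A, was at 11.40 on GATA-4 array 1, at 10.17 to 10.40 on GATA-4 arrays 2 to 5 and at 10.48 to 10.83 with LacZ. Its difference was -0.09 (adjusted p = 0.809) over all arrays and -0.31 (adjusted p = 0.0232) without array 1. Pkib, another inhibitor peptide, had a difference of 0.44 (adjusted p = 0.492) over all arrays and 0.80 (adjusted p = 0.0264) without array 1, where it was at 3.97. Its mean was 4.95 with LacZ, under the filter of 5.17, and 5.39 with GATA-4. Pkib thus entered the test only through the GATA-4 arrays, where it was higher, and was tested in 5 of the 10 fits that left out 1 array.

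Akap1, which anchors protein kinase A at the outer membrane of mitochondria, fell from 11.51 ± 0.09 to 11.10 ± 0.17 (SD, n = 5 each), the only one of 9 anchoring proteins tested to pass. Its difference was -0.42 (SE 0.09, limma adjusted p = 0.0206). Of the 9, 8 had a negative difference, with a median of -0.14. The Akap1 call was lost without LacZ array 3, 4 or 5 or without GATA-4 array 3. The differences of its other 2 probe sets, -0.10 and 0.03, did not pass.

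Of 10 Gq effectors (phospholipases C, protein kinases C and inositol trisphosphate receptors) and 13 targets of protein kinase A and of the inhibitory G proteins, none passed on all 10 arrays. In the first role Plcb4, a phospholipase C, had the smallest p, with a difference of -0.26 (SE 0.09, limma adjusted p = 0.102) and a value of 0.01 in its other probe set. In the second role it was Camk2d, a calcium-activated kinase of the heart muscle cell, at -0.19 (SE 0.07, adjusted p = 0.121). The median differences of the roles were 0.02 and -0.15, and 10 of the 13 targets were negative. Prkcb, a protein kinase C, passed without GATA-4 array 1, at 0.44 (adjusted p = 0.0226, against 0.35 and 0.142 over all arrays). So did Cacnb2, a calcium channel subunit, at -0.34 (adjusted p = 0.0145, against -0.27 and 0.127). Of the other 2 Cacnb2 probe sets tested, 1 had the same sign over all arrays, and neither passed there. Ppp1r1a, an inhibitor of protein phosphatase 1 that protein kinase A switches on, was at -0.58 without GATA-4 array 1 (adjusted p = 0.0119, against -0.44 and 0.15).

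**Figure D5:**
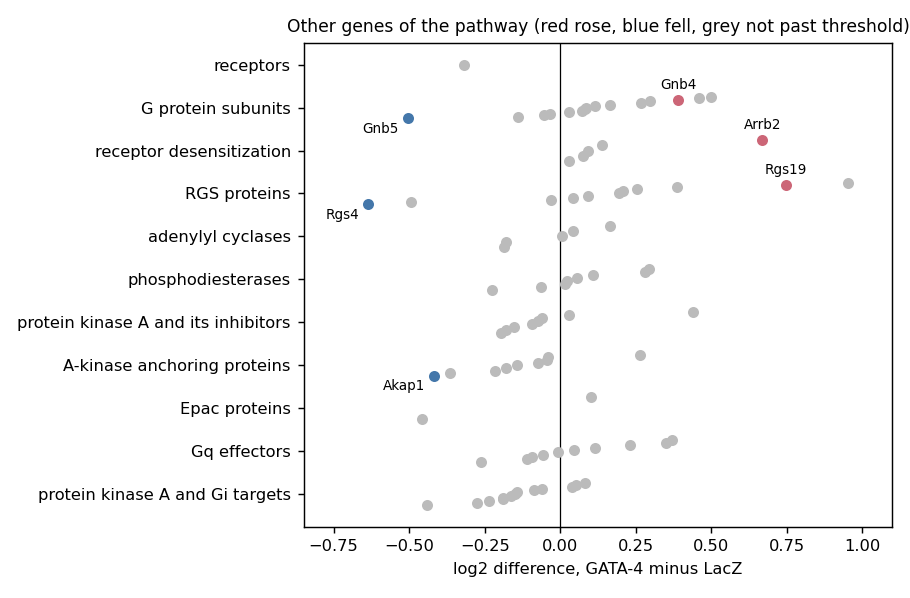
Log2 difference, GATA-4 minus LacZ, on the horizontal axis for the 87 other pathway genes tested, 1 point a gene, in rows by role; red points rose, blue points fell and grey points did not pass a limma adjusted p of 0.05. The 3 genes that rose (Gnb4, Arrb2 and Rgs19) and the 3 that fell (Gnb5, Rgs4 and Akap1) are named, and the largest difference, 0.95 for Rgs1, is grey but passed, at 1.30, without GATA-4 array 1. The LacZ mean of Rgs1, 4.94, lay under the filter of 5.17.

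For the nerves that release the receptors' ligands 5 marker genes were read, of which 4 were under the filter. Their signals are of RNA in the ventricle, and the nerve supply itself was not measured. Dbh, the enzyme that makes noradrenaline from dopamine, rose from 6.30 ± 0.23 to 7.10 ± 0.34 (SD, n = 5 each; difference 0.80, limma adjusted p = 0.0251). The others did not share a direction: the differences were -0.10 for Th, which starts the same synthesis, 0.85 for Slc6a2, the noradrenaline transporter, and -0.11 and 0.08 for the acetylcholine genes Chat and Slc18a3. The summed signal of the 5 was 98.8 to 171 with LacZ and 161 to 259 with GATA-4. Their mean log2 signals, in which Dbh weighs no more than the others, overlapped widely, at 3.26 to 4.61 with LacZ and 3.91 to 4.68 with GATA-4.

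The genes whose pattern over the 10 arrays was most like that of Adra1b were Ankrd50, Asb12 and Atp5pf, by the root mean square distance between profiles brought to a mean of 0 and an SD of 1. Their distances were 0.17, 0.173 and 0.209, where 0 is the same pattern, unrelated profiles lie at 1.34 and the median over 10687 genes was 1.31. Ankrd50 had a difference of -0.32 (limma adjusted p = 0.0497), Asb12 one of -0.47 (adjusted p = 0.0158) and Atp5pf one of -0.12 (adjusted p = 0.0694). The Ankrd50 call was kept in 4 of the 20 alternatives tried. The distances include the difference between the groups and are a description of these 10 arrays.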

How the data were processed

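The table deposited by the authors gives linear probe set intensities of 10 arrays, made with GCOS, per the submitters' processing notes; the sources used here do not give the summary method or the scaling. Array controls (57 of the probe sets) were set aside. Log2 values of the other 31042 were quantile normalized and floored at 0. Probe sets with a mean above the 40th percentile entered a limma fit (version 3.58.1, R 4.3.3; lmFit and eBayes with intensity trend, no covariates, two-sided), and adjusted p-values come from this fit over 18625 probe sets. The brightest probe set stood for a gene in gene counts. Array number 1 to 5 only names an array. Symbols come from GEO's platform annotation, updated by gene ID through RefSeq (20758 of 20826 matched). Members and lists were chosen with earlier results of these data known. Named genes are all members, Gata4, each role's genes past the threshold (at most 4) or its smallest p, and the 3 genes nearest to Adra1b; 5 probe set pairs and the 10 pathway genes that passed with GATA-4 array 1 left out but not on all arrays, chosen after their values were seen, and marker genes were named besides. Alternatives changed the normalization, added constant (16), floor, filter, trend, robust moderation, array weights and the arrays used, among them GATA-4 arrays 4 and 5, whose sample numbers lie apart. The script was tested on simulated data. Coordinates are GRCr8. The number of arrays limits the precision.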

Additional observations from a re-analysis of the deposited data

Results flagged for a closer look

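In 66 groups of 5 arrays examined, 6 held an array far from the other 4 by Dixon's test, and chance flags about 1 in 20 groups. The groups did not include the marker lists or the pathway genes that passed only with GATA-4 array 1 left out. The member values were Gnaq at 5.50 on GATA-4 array 3, where the nearest array was at 5.79, and Pde4d 1392968_at at 8.81 on LacZ array 5, where the nearest was at 8.61. The other pathway values were Adra1d at 6.42 on GATA-4 array 2 (nearest 7.34), Adcy4 at 8.34 on GATA-4 array 1 (nearest 7.79) and Rapgef4 at 7.09 on LacZ array 4 (nearest 7.72). Ankrd50, near Adra1b in pattern, was at 8.51 on LacZ array 2 (nearest 8.61). The values are log2 signals, and 1 of the 6 lies on the dim GATA-4 array 1. Among the pathway genes not examined, that array lay far from the other GATA-4 arrays for Prkaca (11.40 against 10.17 to 10.40) and Grk6 (8.57 against 9.73 to 10.07).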

How the results depend on the processing

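Counts past the threshold are given as members, pathway genes and all probe sets, 1, 6 and 988 as reported. They were 0, 0 and 9 as deposited, where the Gata4 difference was 0.70 (limma adjusted p = 0.993). With array weights they were 4, 14 and 2890. Members numbered 2 with median centring, where all probe sets numbered 723. With the 60th percentile filter 4 of the 8 member probe sets tested passed, and 1092 of all 12417 tested. All probe sets numbered 619 without a filter. Without the intensity trend pathway genes numbered 3 and all probe sets 539, and without GATA-4 arrays 4 and 5 they numbered 2 and 201. Leaving out 1 array gave 1 to 4 members, 1 to 16 pathway genes and 174 to 2849 probe sets, the highest without GATA-4 array 1; pathway genes numbered 1 without LacZ array 3 or 5 or GATA-4 array 3, and probe sets 174 without LacZ array 3. The cause was not tested. Values that turned their sign were Gnas 1369897_s_at, at -0.014 as deposited and -0.017 with median centring, and Pde4d 1370569_at, which ran from -0.17 to 0.078 with single arrays left out and was positive without LacZ array 1 or 3 or GATA-4 array 2 or 5. Of the values of single probe sets, 426 kept their direction and side of the threshold, 16 came to pass it, 68 no longer passed and 6 turned their sign. Dim signals limit Adrb1, Adra1a and Chrm2. No paired analysis was possible because the labels give the groups no shared replicate numbers.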
